A study of Homo sapiens with 20 samples.

Results

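The 8 libraries described here were made from HEK293T cells that received non-targeting siRNAs, short duplexes designed to match no human transcript. They were taken by label alone from the 20 libraries of a study in which siRNAs against HUWE1, a ubiquitin ligase of the HECT family, were the treatment. The labels divide the controls into 4 libraries without a set number, called set 1 here, and 4 libraries that served both set 2 and set 3. The other 12 libraries carry HUWE1 siRNAs by their titles and descriptions, 4 in each of the 3 sets, whereas the extraction text common to all 20 speaks of UBA1 and E2 enzymes as targets and not of HUWE1. The series' description calls the 4 libraries of a group biological replicates. The labels give no dose, time, passage or date and do not say in what the sets differ. The values of set 1 stand in one deposited table and those of sets 2 and 3 in another, so the set, the table and anything else that went with them cannot be told apart. Where values of both groups are set against each other, those of set 1 come first and replicates 1 to 4 are in order. All differences between the 2 control groups are therefore given as descriptions, with no test.

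HEK293T is a line of human embryonic kidney cells that was transformed with adenovirus DNA and later given the large T antigen of the SV40 virus. Large T antigen binds the p53 and retinoblastoma proteins, and the cells divide fast and take up nucleic acids readily. Despite the name, the line is known for a mixed transcriptome, with regulators of the early kidney, neurofilament genes and few products of the mature nephron. The labels name no clone or subline.

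Gene levels are in TPM, the gene's share of the library's transcripts after correction for transcript length, scaled to the same total in every library. Transcripts of the mitochondrial genome, the 37 symbols that start with MT-, took 24.3 to 25.8% of the TPM in the set 1 controls and 16.6 to 18.3% in the controls of sets 2 and 3. They were left out and each library was brought back to its former total, which is called rescaled TPM here. The number of reads behind these values is unknown, so the counting error of a single value cannot be given. The 4 set 1 controls lay close together, with a correlation of log2 values across 16597 genes of 0.994 to 0.995 between any pair. Within sets 2 and 3 it ran from 0.981, between replicates 1 and 4, to 0.995, and between the sets from 0.951 to 0.975. The median standard deviation of a gene's log2 value was 0.068 in set 1 and 0.14 in sets 2 and 3. HUWE1 itself stood at 212, 219, 206 and 205 in set 1 and 198, 203, 201 and 191 in sets 2 and 3. Its mean in the HUWE1 siRNA libraries was 114 in set 1, 114 in set 2 and 101 in set 3, below every control.

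The highest levels in the control cells belonged to genes of translation. Of the 50 genes with the highest mean, 31 encode ribosomal proteins. EEF1A1, which brings aminoacyl-tRNA to the ribosome, had the highest mean level of all genes, 7369 ± 247 (SD, n = 4) in set 1 and 10857 ± 925 in sets 2 and 3. RPS2, a protein of the small ribosomal subunit, followed at 6437 ± 165 and 7821 ± 162. RPL41, the smallest ribosomal protein, stood at 6797 ± 221 and 6680.2 ± 363, and its groups overlapped. Beside ribosomal proteins, the elongation factors EEF2 and EEF1G, the glycolytic enzyme GAPDH and the cytoplasmic actin ACTG1 were among the 15 genes of highest level. BCYRN1, a short RNA derived from an Alu element, ranged from 6102 to 8980 in set 1 and from 1987 to 6554 in sets 2 and 3. Its sequence has many near copies in the genome, so its level is uncertain.

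A rescaled TPM of 1 or more in all 4 libraries was reached by 15895 genes in set 1 and by 15016 in sets 2 and 3. The 14715 genes that reached it in all 8 libraries were protein coding in 87.2% of cases. A further 1180 genes reached it in set 1 alone and 301 in sets 2 and 3 alone, while 15748 symbols were listed at 0 in all 8 libraries. RNA was more concentrated in few genes in sets 2 and 3. There, 744 to 935 genes made up 50% of the rescaled TPM, against 1092 to 1112 in set 1. Ribosomal protein genes held 12.4 to 12.8% in set 1 and 14.2 to 16.0% in sets 2 and 3. Of the 100 highest genes of each set, 87 were the same.

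Early kidney regulators were present while most genes of the mature nephron were near 0. Of 22 regulators of nephron and kidney development, 16 reached 1 in all 8 libraries. Among the highest was HOXD11, a homeobox gene needed for kidney formation, at 64.6 ± 0.786 in set 1 and 65.2 ± 2.15 in sets 2 and 3. FOXD1, a marker of the kidney stroma, stood at 51.4 ± 5.46 and 72.9 ± 5.41. SIX2, a transcription factor of the kidney progenitors, had means of 33.8 in set 1 and 27.01 in sets 2 and 3. PAX2, needed for the ureteric bud and the nephron, was lower, at 5.76, 5.61, 5.70 and 5.78 in set 1 and 4.24, 2.90, 2.96 and 2.33 in sets 2 and 3. Of these regulators, 5 stayed below 1 in all 8 libraries, among them PAX8 and WNT4. Of 18 markers of the mature nephron, only LRP2, AQP1, PODXL and SYNPO reached 1 in all 8. UMOD, the defining protein of the thick ascending limb, did not exceed 0.039 in any library, and the proximal tubule transporter SLC22A6 was listed at 0 throughout.

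Of 21 neuronal markers, 13 reached 1 in all 8 libraries. MAP2, DCX, STMN2, ELAVL3, ELAVL4 and SLC17A6, 6 of the 21, stayed below 1 in all 8. The neurofilament genes NEFM and NEFL stood at 201 ± 9.25 and 123 ± 4.47 in set 1 and at 192 ± 35.5 and 113 ± 11.6 in sets 2 and 3, and in both genes the groups overlapped. UCHL1, an abundant neuronal ubiquitin hydrolase, was still higher, at 299 and 262. NEFH, the heavy neurofilament chain, stood at 2.79, 3.57, 3.29 and 2.67 in set 1 and 0.805, 0.412, 0.509 and 0.281 in sets 2 and 3. Of the 15 neuronal markers that reached 1 in at least 4 libraries, 4 (NEFH, INA, TUBB3 and GAD1) lay higher in set 1 without overlap (all genes, 38.6%) and 3 (SYP, ELAVL2 and MAPT) higher in sets 2 and 3 (all genes, 19.0%). Of 16 epithelial markers 10 reached 1 in all 8, with the simple keratins KRT18 and KRT8 at means of 95.5 and 52.7 in set 1. KRT19, KRT7, KRT5, KRT14 and GRHL2 stayed below 1 in all 8. Of 18 mesenchymal markers 12 reached 1 in all 8, with vimentin (VIM) at 722 and N-cadherin (CDH2) at 143 in set 1. COL1A2, PDGFRB, DCN and POSTN stayed below 1 in all 8. Of 13 pluripotency markers 6 reached 1 in all 8, LIN28B and DNMT3B foremost. The core pluripotency factor NANOG did not exceed 0.15 in any library.

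Most markers of other tissues stayed below 1 in all 8 libraries. None of 10 endothelial and none of 11 hepatocyte markers reached 1 in all 8 libraries, and 3 of 15 blood markers did, among them CD68 and HBA1, whose coding sequence is shared with HBA2. The pan-leukocyte gene PTPRC did not exceed 0.06, and HBB and MS4A1 were listed at 0 in every library. Adrenal and chromaffin markers reached 1 in all 8 libraries in 5 of 17 cases, with GATA2 highest at 60.6 in set 1. The others were HAND2 (means of 18.5 and 20.4), PNMT (10.3 and 6.65), CHGB (4.94 and 2.99) and CHGA (2.66 and 1.55). Of the catecholamine enzymes, TH and DBH did not exceed 0.085, unlike PNMT, and 11 of the 17 markers stayed below 1 in all 8.

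**Figure D1:**
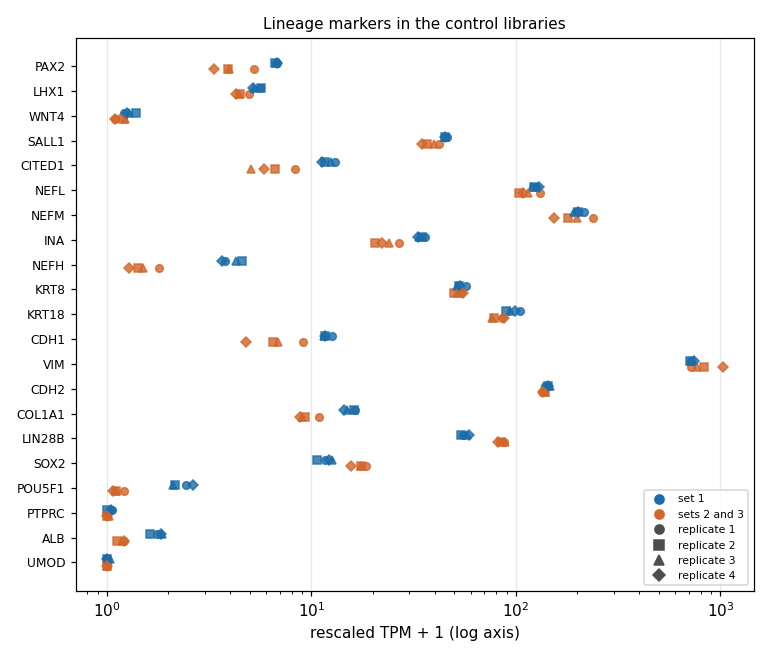
Levels of 21 lineage markers in the 8 control libraries, as rescaled TPM + 1 on a log axis. Each point is 1 library, coloured by set and shaped by replicate number. NEFM and VIM lie above 100 in all 8 libraries, while PTPRC and UMOD lie near 1, the place of a gene at 0.

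Between the 2 control groups the transcriptome differed in many genes by a little and in some by a lot. Genes with a rescaled TPM of 1 or more in at least 4 of the 8 libraries were compared, 16597 in all, on the scale of log2(rescaled TPM + 1), which understates the difference of low genes. The groups did not overlap for 57.5% of genes. For 6404 genes (38.6%) all 4 set 1 values lay above all 4 values of sets 2 and 3, and for 3147 (19.0%) below. The groups overlapped for 7046. These 2 shares are the background for the counts of every gene list below. Means 2-fold or more apart as well as no overlap were found for 934 genes higher in set 1 (5.63%) and 138 higher in sets 2 and 3 (0.831%), together 6.46%. The median difference over all genes, sets 2 and 3 minus set 1, was -0.13, with a 10th percentile of -0.80 and a 90th of 0.40.

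The balance of directions moved with the scaling. The share of 2-fold calls that were higher in sets 2 and 3 was 12.9% as computed here. It was 24.8% with the mitochondrial transcripts kept, 28.8% when medians of ratios set the scale, 33.3% after quantile normalization and 30.8% after removal of a trend with GC content and length. Under the first 3 of these the median over all genes was 0.00, 0.03 and 0.03. Differences of gene lists are therefore set beside the -0.13 of all genes. No gene called here had the opposite sign under any of these 4 alternatives.

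**Figure D2:**
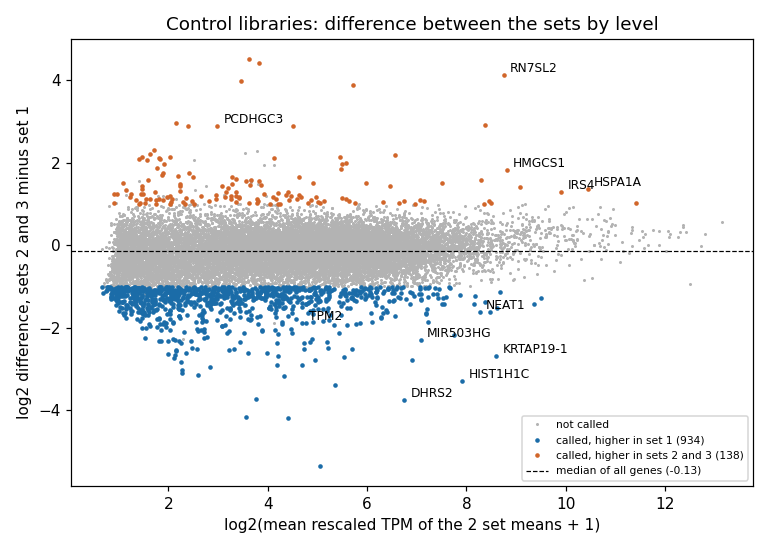
Difference between the control groups (log2, sets 2 and 3 minus set 1) against the mean level for the 16597 genes compared, 1 point per gene. Coloured points mark the 934 genes called higher in set 1 and the 138 called higher in sets 2 and 3, and the dashed line is the median of all genes, -0.13.

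Histone genes, testis-restricted genes and keratin-associated proteins filled most places among the largest differences toward set 1. Replication-dependent histone mRNAs end in a stem-loop in place of a poly(A) tail and are made in S phase. The list of 90 histone genes also held ones with polyadenylated mRNA, such as H1F0, and 53 of the 90 passed the filter. Of these, 31 lay higher in set 1 without overlap (all genes, 38.6%) and 3 higher in sets 2 and 3 (all genes, 19.0%). In set 1, 24 were 2-fold higher (all genes, 5.63%), and the median difference was -0.99. Since a gene could pass through the set in which it was high, these counts describe the genes that passed and not all histone genes. The sum over all 90 was 6014, 5439, 5939 and 5836 in set 1 and 5131, 3837, 4134 and 3506 in sets 2 and 3, without overlap. H1F0, given below, held a large part of this sum in both sets, so the sum is not that of replication-dependent mRNAs alone. In bulk RNA a smaller share of cells with a transcript and less of it per cell cannot be told apart.

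HIST1H1C, a linker histone gene without introns (chr6:26055787-26056428, minus strand, hg38), stood at 459.8, 372, 461 and 423 in set 1. In sets 2 and 3 it stood at 108, 30.1, 48.6 and 19.9, a mean 8.28 times lower (log2 difference -3.30, SE 0.52). HIST1H2AC, a core histone gene, stood at 42.3, 39.4, 46.3 and 40.8 against 20.4, 4.61, 7.05 and 2.29. In both genes replicate 1 of sets 2 and 3 was the highest of its group and replicate 4 the lowest. HIST2H2AA3 was listed at 0 in all 4 libraries of sets 2 and 3 and at 74.2, 72.6, 107 and 3.58 in set 1, but it has a near-identical copy, HIST2H2AA4, so reads may be split between them in any way. Their sum was 228, 141, 211 and 182 in set 1 and 63.9, 29.9, 33.5 and 31.7 in sets 2 and 3, 4.79 times higher in set 1. HIST2H2BF and HIST1H4H, 2 more core histone genes, had means of 14.6 and 15.99 in set 1 and 2.04 and 2.10 in sets 2 and 3. H1F0, a linker histone gene of resting cells whose mRNA is polyadenylated, was 1.66 times higher in set 1 (1833 and 1107).

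Beside HIST2H2AA3, the largest difference toward set 1 among the genes named by the rule was that of DHRS2, a short-chain dehydrogenase (chr14:23630115-23645639, plus strand). It stood at 201, 179.6, 199.8 and 189.5 in set 1 and at 55.3, 8.19, 16.03 and 3.88 in sets 2 and 3 (log2 difference -3.75, SE 0.75). The set 1 values lay close together, whereas in sets 2 and 3 replicate 1 was the highest and replicate 4 the lowest, and all 4 lay below set 1. TEX14, a protein of the bridges between germ cells, stood at 77.5, 79.9, 79.9 and 73.6 against 25.7, 9.63, 15.3 and 3.61, in the same order of replicates.

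Keratin-associated proteins are products of hair follicles, encoded by small single-exon genes in clusters. KRTAP19-1 (chr21:30479699-30480344, minus strand) stood at 618, 567, 776 and 685 in set 1 and 218, 75.2, 99.3 and 64.7 in sets 2 and 3. Over all 94 genes of the family the sum was 704 ± 95.1 and 121 ± 72.05, and KRTAP19-1 held most of it. The SSX, GAGE, CT45 and MAGEA genes of the X chromosome are cancer-testis genes, normally active in germ cells and re-expressed in some tumours. Their 43 members summed to 114, 106, 120.0 and 109.8 in set 1 and 60.1, 49.1, 52.5 and 48.2 in sets 2 and 3. SSX1 stood at 8.56, 8.64, 8.57 and 7.88 against 1.21, 0.401, 0.659 and 0.491, and SSX3 at means of 7.73 and 0.487. SSX4B and GAGE12F had means of 6.51 and 6.57 in set 1 and 0.107 and 0.282 in sets 2 and 3. RFPL4B, a gene of the ret finger protein-like family, stood at 6.55 ± 0.468 and 0.318 ± 0.197. Copies within these families share sequence, so that a value for 1 member is less certain than the sum. These families and the tubulin, HOX, protocadherin and RN7SL families below were singled out after the values had been seen.

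**Figure D3:**
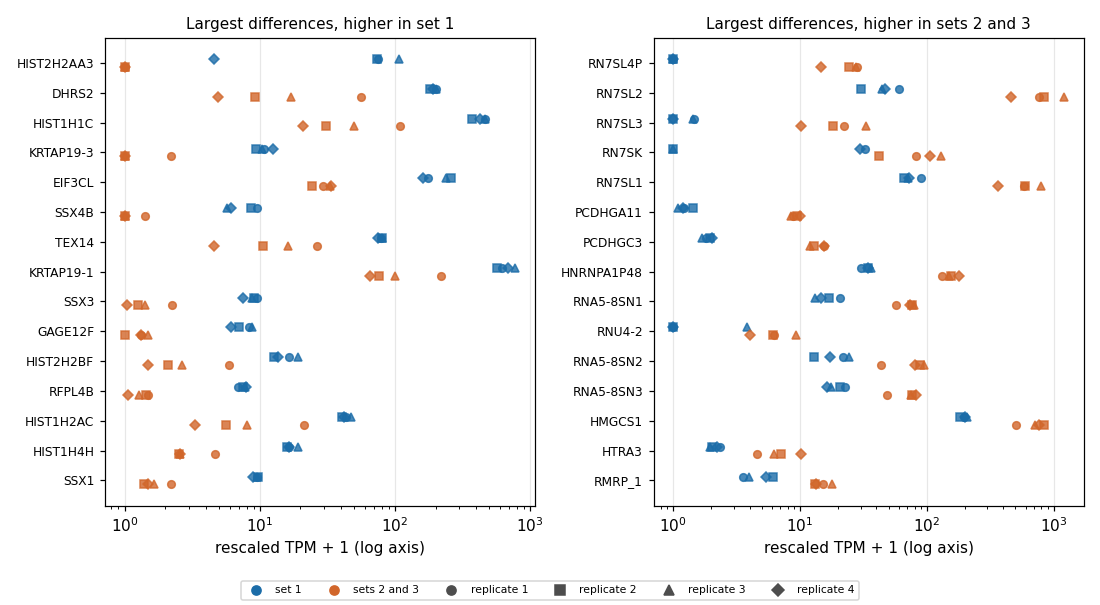
The 15 largest differences in each direction among genes with a set mean of 5 or more, as rescaled TPM + 1 on a log axis, 1 point per library. Points of replicate 1 of sets 2 and 3 (orange circles) lie nearest to set 1 for HIST1H1C, DHRS2, TEX14 and KRTAP19-1.

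Some genes differed by a large factor with little spread in either set. MIR503HG, the host transcript of the microRNA miR-503 (chrX:134543337-134546632, minus strand), was chosen after its values were seen. It stood at 227, 232, 219.7 and 219 in set 1 and 48.8, 44.4, 43.4 and 41.8 in sets 2 and 3, 5.03 times higher in set 1 (log2 difference -2.31, SE 0.05). The microRNA rows MIR503 and MIR424, of the same locus, were listed at 0 in all 8 libraries, so the mature products were not measured. The 5p products of this locus, from RefSeq on GRCh38.p14, are shown with the seed (bases 2 to 8) in capitals, because nearly the same seed places both in the extended miR-16 family.
miR-503-5p: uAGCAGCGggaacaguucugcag
miR-424-5p: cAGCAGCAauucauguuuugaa

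TPM2, a tropomyosin that coats actin filaments, stood at 40.6, 41.5, 38.2 and 38.9 in set 1 and 10.8, 9.37, 10.2 and 10.1 in sets 2 and 3, with no library between. MAPK15, an atypical MAP kinase, stood at 60.5 ± 5.66 and 10.97 ± 0.257. Of the other actin genes the direction was mixed: filamin A (FLNA) was 1.79 times higher in set 1 without overlap, smooth muscle actin (ACTA2) 2.12 times higher in sets 2 and 3. On the actin and SRF list, 7 of 23 members lay higher in set 1 (all genes, 38.6%). Of the others, 5 lay higher in sets 2 and 3 (all genes, 19.0%) and 11 overlapped. Of 19 tubulin genes 15 passed the filter, of which 13 lay higher in set 1 (all genes, 38.6%) and none higher in sets 2 and 3, with a median of -0.59 (-0.94 in the HUWE1 siRNA libraries). Low members such as TUBA3D, TUBA3E and TUBA8 stood below 1 on average in sets 2 and 3 and could pass through set 1 alone, so these counts do not describe all tubulin genes. The sum over all 19 was 4684 ± 103 and 3764 ± 119.8, without overlap. TUBB2A, a beta tubulin, stood at 365, 353, 349 and 348 against 262, 161, 180.1 and 129.

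Single nuclear long noncoding RNAs were higher in set 1. NEAT1, the scaffold of paraspeckles, stood at 456, 435, 481 and 481 in set 1 and 182, 124, 155 and 149 in sets 2 and 3 (log2 difference -1.61, SE 0.12). TUG1 stood at 158, 177, 176 and 167 against 68.2, 54.1, 58.1 and 71.8, and FTX at means of 6.61 and 2.37. MALAT1, the abundant RNA of nuclear speckles, had a difference of 0.04 and overlapping groups. Of the 26 long noncoding RNAs and snoRNA hosts compared, 14 lay higher in set 1 (all genes, 38.6%) and 5 higher in sets 2 and 3 (all genes, 19.0%), with a median of -0.24. Splicing factors lay the same way, 20 of 35 higher in set 1 and 5 higher in sets 2 and 3, with a median of -0.26. The splicing kinases CLK2 and CLK1 led them at differences of -0.83 and -0.81. With the other scalings these 2 medians shrank to between -0.07 and -0.21, still below 0.

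Interferon response genes lay mostly higher in set 1. Of 28 compared, 17 lay higher in set 1 (all genes, 38.6%) and 7 higher in sets 2 and 3 (all genes, 19.0%), with a median of -0.32 (between -0.09 and -0.28 with the other scalings and after removal of the GC and length trend). IRF7, a transcription factor that drives interferon genes, stood at 35.99, 33.6, 30.3 and 36.5 in set 1 and 15.9, 13.7, 11.9 and 11.97 in sets 2 and 3. STAT2, a subunit of the factor that interferon activates, stood at 62.3 ± 2.86 and 29.4 ± 1.19. ISG15, a ubiquitin-like protein, was 1.999 times higher in set 1. The sensor IFIH1 and the membrane protein BST2 lay the other way, at 0.46 and 0.65.

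Several lineage markers at low levels were higher in set 1. Of the 18 mature nephron markers 6 passed the filter, 4 of them higher in set 1 without overlap, and of the 10 endothelial markers 3 did, all higher in set 1. A marker near 1 could pass through set 1 alone and then had to differ, so these counts support nothing. Of the endothelial markers, PECAM1 stood at 1.91, 2.04, 2.07 and 2.18 in set 1 and 0.339, 0.121, 0.193 and 0.0412 in sets 2 and 3, while KDR and the defining cadherin CDH5 stayed below 1 in both sets. The T cell receptor component CD3E stood at 1.93, 1.76, 2.33 and 1.98 against 0.185, 0.0731, 0 and 0 beside a PTPRC near 0. The pluripotency factor POU5F1 stood at 1.43, 1.16, 1.10 and 1.64 against 0.218, 0.108, 0.111 and 0.0737, whereas SOX2 (10.8 and 16.3) and LIN28B (55.4 and 84.4) were higher in sets 2 and 3. The summed level of the 10 endothelial markers ran from 6.78 to 7.17 in set 1 and 0.497 to 1.96 in sets 2 and 3. Whether a few other cells or a low level in all cells gave these values was not tested. The collagen gene COL3A1 (11.6 ± 0.354 and 4.94 ± 0.203) and the proteoglycan LUM (6.71 ± 1.23 and 2.66 ± 0.807), 2 mesenchymal markers, were more than 2-fold higher in set 1. The medians of the nephron regulators and of the neuronal markers were -0.08 and -0.09, close to all genes, and turned positive under other scalings.

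The largest differences toward sets 2 and 3 belonged to small noncoding RNAs that normally carry no poly(A) tail. RN7SL1 and RN7SL2 encode the RNA of the signal recognition particle, which brings nascent secreted proteins to the endoplasmic reticulum. With the near-identical RN7SL3 they summed to 148, 94.7, 114 and 116 in set 1 and 1373, 1445, 2038 and 835 in sets 2 and 3, 12.05 times higher. RN7SK, which holds the elongation factor P-TEFb inactive, stood at 31.8, 0, 0 and 28.8 in set 1 and 81.03, 40.6, 129 and 104 in sets 2 and 3. The 5.8S ribosomal RNA copies RNA5-8SN1 to RNA5-8SN3 lay on the same side, the first at 15.4 and 70.6. The copies RNU1-1 to RNU1-4 of the U1 spliceosomal RNA summed to 13.1 ± 3.62 and 95.2 ± 33.2, although single copies varied, RNU1-2 from 0.634 to 61.6 within sets 2 and 3. RNU4-2, a gene of the U4 spliceosomal RNA, stood at 0, 0, 2.82 and 0 in set 1 and 5.22, 5.16, 8.34 and 3.02 in sets 2 and 3. RN7SL4P, a pseudogene of the RN7SL family, was listed at 0 in all 4 set 1 libraries and stood at 27.1, 23.3, 26.4 and 13.7 in sets 2 and 3. The annotated copy RMRP_1 of the RNA of mitochondrial RNA processing ribonuclease stood at 2.56, 5.09, 2.96 and 4.40 against 14.1, 12.03, 16.8 and 12.3. The U5 copy RNU5F-1 went the other way, at 17.6, 34.98, 27.2 and 12.3 in set 1 and 3.59, 2.67, 4.57 and 7.27 in sets 2 and 3. These were single genes and not whole classes. Among 24 small nuclear RNA genes compared, 3 (12.5%) lay higher in sets 2 and 3 without overlap (all genes, 19.0%). Those 3 were also 2-fold higher (all genes, 0.831%), 1 gene lay higher in set 1, and the median was 0.32. Of 27 miscellaneous RNA genes, 4 (14.8%) lay higher in sets 2 and 3 and 8 (29.6%) higher in set 1 (all genes, 38.6%). Their median was -0.43.

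Genes of sterol synthesis lay higher in sets 2 and 3. Cells make cholesterol through the mevalonate pathway, and when sterols run low in the endoplasmic reticulum, the transcription factor SREBP2 (gene SREBF2) moves to the nucleus and drives most of its enzymes. Of 24 genes compared, 19 lay higher in sets 2 and 3 without overlap (all genes, 19.0%), none higher in set 1, and 5 were 2-fold higher (all genes, 0.831%). The median difference was 0.48, and between 0.53 and 0.67 with the other scalings and after removal of the GC and length trend. In the HUWE1 siRNA libraries the median was lower, at 0.31, with 16 genes higher in sets 2 and 3 and 5 higher in set 1, among them MVK, LSS, DHCR7 and SREBF2.

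HMGCS1, which makes the precursor of mevalonate, led the group at 194, 183, 207 and 199 in set 1 and 503, 831, 712 and 769 in sets 2 and 3. The lowest value of sets 2 and 3 was more than 2-fold above the highest of set 1 (log2 difference of the means 1.82, SE 0.16). IDI1, the isomerase of the isoprenoid branch, stood at 148, 141, 168 and 154 against 335, 535, 464 and 547. INSIG1, which retains SREBP2 in the endoplasmic reticulum and is itself among its targets, stood at 294, 266, 312 and 299 against 631, 878, 787 and 834. Replicate 1 was the lowest of sets 2 and 3 in each of these 3 genes and still above all of set 1.

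Other members had smaller differences. MSMO1, a sterol demethylase component, was 2.02 times higher. SREBF2 itself overlapped, at 204 ± 6.88 and 200.1 ± 10.99, as did MVK of the early pathway and the late enzymes LSS, DHCR7 and HSD17B7. Of 12 fatty acid genes, 10 lay higher in sets 2 and 3 (all genes, 19.0%). Only SREBF1 lay higher in set 1 (all genes, 38.6%), and the median of the list was 0.49. FADS2, a desaturase of long-chain fatty acids, stood at 11.1, 12.1, 12.5 and 12.3 against 18.7, 33.9, 26.2 and 41.7. SCD, the desaturase that makes oleate, stood at 742 ± 26.5 and 1399 ± 161, and FASN, the fatty acid synthase, had a difference of 0.08 with overlap.

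Promoter windows of 300 bases that span the transcript start, from RefSeq on GRCh38.p14, are shown for 3 of these genes because most of the group lay the same way. CCAAT, the site of the factor NF-Y, was searched on both strands and stands in capitals (as ATTGG where it lies on the other strand).
HMGCS1 (chr5:43313363-43313662, minus strand): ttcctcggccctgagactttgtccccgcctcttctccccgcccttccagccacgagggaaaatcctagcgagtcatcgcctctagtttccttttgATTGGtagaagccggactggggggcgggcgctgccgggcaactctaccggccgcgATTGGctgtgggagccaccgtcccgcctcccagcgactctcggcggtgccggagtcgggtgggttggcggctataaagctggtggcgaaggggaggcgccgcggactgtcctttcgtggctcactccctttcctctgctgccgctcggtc
INSIG1 (chr7:155297628-155297927, plus strand): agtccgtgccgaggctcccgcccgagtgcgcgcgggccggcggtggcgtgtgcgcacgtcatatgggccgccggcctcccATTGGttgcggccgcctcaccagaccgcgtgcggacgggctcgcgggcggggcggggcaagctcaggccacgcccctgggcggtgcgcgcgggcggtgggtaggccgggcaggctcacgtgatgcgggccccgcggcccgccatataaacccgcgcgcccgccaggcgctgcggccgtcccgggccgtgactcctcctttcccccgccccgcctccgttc
MSMO1 (chr4:165327419-165327718, plus strand): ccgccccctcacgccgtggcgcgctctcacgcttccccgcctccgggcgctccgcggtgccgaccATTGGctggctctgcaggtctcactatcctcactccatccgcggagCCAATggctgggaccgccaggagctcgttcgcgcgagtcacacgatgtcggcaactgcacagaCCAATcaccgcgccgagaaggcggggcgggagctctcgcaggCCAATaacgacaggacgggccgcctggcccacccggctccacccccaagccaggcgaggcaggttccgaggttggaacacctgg

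Another HMGCS1 window in the same table, chr5:43313132-43313431, held 0 matches to this motif. CCAAT was found in 18 of 23 windows of sterol genes (78.3%), belonging to 16 of 18 genes with an entry, and in 34.6% of all 35116 windows. A core of the sterol regulatory element, CACNCCAC, was in 5 of 23 windows (21.7%) against 5.87% of all, and its longer form TCACNCCAC, which contains it, in 1 of 23 (4.35%) against 1.13%. A match in such a window is a description of its letters, and the motifs were chosen with the expression values known.

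Glycolytic genes were also higher in sets 2 and 3. Of 20 compared, 13 lay higher without overlap (all genes, 19.0%) and none lower (all genes, 38.6%), with a median of 0.44. PGK1, the first ATP-making enzyme of the pathway, stood at 222, 210.5, 226 and 227 in set 1 and 323, 518, 456 and 617 in sets 2 and 3. LDHA, which turns pyruvate into lactate, stood at 378, 372, 369.6 and 389 against 524, 844, 738 and 994. Both were lowest in replicate 1 and highest in replicate 4 of sets 2 and 3, without overlap with set 1. Of 21 hypoxia response genes, 13 lay higher in sets 2 and 3 (all genes, 19.0%) and 5 higher in set 1 (all genes, 38.6%). Their median was 0.32. The mitophagy receptor BNIP3 (82.9 ± 6.05 and 184 ± 43.1) led those higher in sets 2 and 3. The oxygen-sensing hydroxylase EGLN1 (52.7 ± 2.22 and 97.4 ± 4.79) and the pyruvate dehydrogenase kinase PDK1 (14.8 ± 0.908 and 28.1 ± 6.32) came next. VEGFA, the angiogenic factor that hypoxia induces, lay the other way at 86.2 ± 2.44 and 49.5 ± 4.25.

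Heat shock genes encode chaperones, induced by the factor HSF1 when proteins misfold. Of 20 compared, 14 lay higher in sets 2 and 3 (all genes, 19.0%) and 2 higher in set 1 (all genes, 38.6%). Their median was 0.36. HSPA1A, the inducible HSP70 (chr6:31815464-31817946, plus strand), stood at 799.8, 779, 769 and 765 in set 1 and 1921, 2205, 2152 and 1779.8 in sets 2 and 3. Its neighbour HSPA1B encodes the same protein, so reads may be shared, and their sum was 1519 ± 32.1 and 3323 ± 259, 2.19 times higher in sets 2 and 3. The co-chaperone genes DNAJB1, DNAJA1 and BAG3, which heat shock also induces, overlapped, with differences of 0.05, -0.07 and -0.07. HSF1 itself was lower in sets 2 and 3, at -0.57, and the strictly stress-induced HSPA6 stood at 1.73 in set 1 and 0.368 in sets 2 and 3.

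The RefSeq windows of the pair are shown with GAANNTTC, a head-to-head pair of the units that HSF1 binds, in capitals, since the genes encode the same protein and their reads may be shared.
HSPA1A (chr6:31815293-31815592, plus strand): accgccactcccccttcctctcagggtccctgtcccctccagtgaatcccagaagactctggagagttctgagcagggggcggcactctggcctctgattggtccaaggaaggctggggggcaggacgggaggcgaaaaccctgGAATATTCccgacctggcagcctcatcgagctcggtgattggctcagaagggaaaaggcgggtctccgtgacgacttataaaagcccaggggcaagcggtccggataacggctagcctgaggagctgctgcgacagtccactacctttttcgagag
HSPA1B (chr6:31827488-31827787, plus strand): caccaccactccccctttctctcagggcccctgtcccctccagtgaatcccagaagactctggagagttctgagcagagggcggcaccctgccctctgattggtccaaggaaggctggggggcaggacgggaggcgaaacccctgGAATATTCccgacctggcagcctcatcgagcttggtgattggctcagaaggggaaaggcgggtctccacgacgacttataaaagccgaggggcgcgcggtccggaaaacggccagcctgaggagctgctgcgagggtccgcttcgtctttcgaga

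GAANNTTC, the same on both strands, was in 12 of 28 windows of heat shock genes (42.9%) against 6.77% of all windows. The longer form, in which NNGAA follows it on either strand, was in 7 of 28 (25%) against 0.490%, and in neither window printed here. CCAAT was in 9 of 28 (32.1%).

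Of 36 mitosis genes 25 were higher in sets 2 and 3 (all genes, 19.0%). The 3 higher in set 1 (all genes, 38.6%) were AURKB, FOXM1 and NUSAP1, and the median of the list was 0.34. HMMR, a spindle protein, stood at 29.8, 28.6, 31.4 and 31.7 against 47.7, 63.6, 61.03 and 95.7, and the checkpoint protein MAD2L1 at 77.1 ± 5.58 and 139 ± 15.6. MKI67, the common proliferation marker, overlapped at -0.08. Of 43 replication genes driven by E2F, 9 lay higher in sets 2 and 3 (all genes, 19.0%). A further 16 lay higher in set 1 (all genes, 38.6%), so both counts were close to the shares of all genes. Their median was -0.11. It turned positive with the mitochondrial transcripts kept, with median-of-ratios scaling and after removal of the GC and length trend.

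Of 85 cytosolic ribosomal protein genes, 53 lay higher in sets 2 and 3 (all genes, 19.0%) and 7 higher in set 1 (all genes, 38.6%), with a median of 0.27. After quantile normalization this median was 0.095, against 0.03 for all genes, and that of the translation factors fell from 0.21 to 0.12. RPLP1, of the ribosomal stalk, was among the 7 higher in set 1, at -0.33. Translation factors gave 19 of 36 higher in sets 2 and 3 and 9 higher in set 1, and nuclear-encoded respiratory chain genes 33 of 54 and 7. EIF3E, a subunit of initiation factor eIF3, was 1.90 times higher in sets 2 and 3, and NDUFA1, a subunit of complex I, 1.94 times. Genes of ribosome assembly that MYC drives were closer to all genes, with 19 of 40 higher in set 1 (all genes, 38.6%) and 6 higher in sets 2 and 3 (all genes, 19.0%). Their median was -0.23, and -0.10 with the mitochondrial transcripts kept and -0.05 with median-of-ratios scaling. The processome component RRP12 stood at 76.9, 76.5, 76.4 and 74.3 against 55.5, 38.2, 41.5 and 32.8. NPM1, a nucleolar chaperone on the same list, was 1.92 times higher in sets 2 and 3. The listing of EIF3CL among the largest differences rests on the split of reads with its near-identical copy EIF3C: EIF3CL stood at 208 and 29.04, but the sum of both was 594 ± 35.3 and 526 ± 53.2 and overlapped. HNRNPA1P48, a processed copy of HNRNPA1, stood at 32.7 and 153, beside 1615 and 2077 for HNRNPA1, whose reads it may share.

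**Figure D4:**
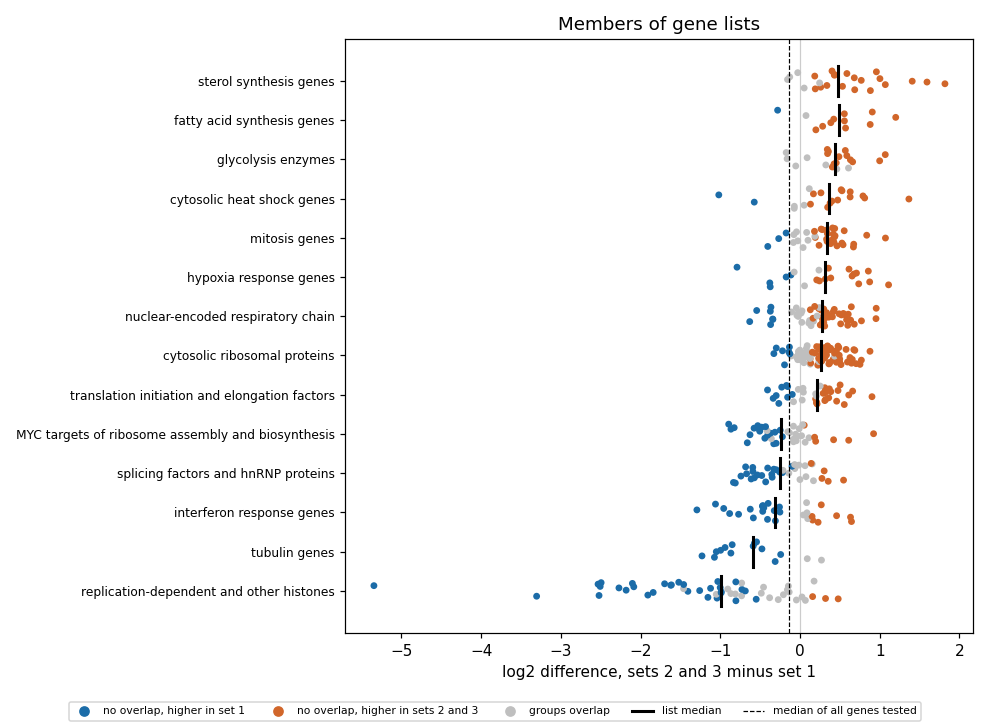
Differences of the members of 14 gene lists (log2, sets 2 and 3 minus set 1), 1 point per gene compared. Colour marks genes whose groups do not overlap, the short black bars are list medians, and the dashed line is the median of all genes, -0.13. The medians of sterol, fatty acid, glycolysis and heat shock genes lie right of that line and those of tubulin and histone genes left of it.

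IRS4, an insulin receptor substrate known for its high level in HEK293 cells, stood at 461, 579, 612 and 577 in set 1 and 1347, 1371, 1399 and 1349 in sets 2 and 3, 2.45 times higher with little spread in the latter. IGFBP5, a secreted binder of insulin-like growth factors, stood at 14.5, 16.2, 13.9 and 13.7 against 38.7, 46.4, 44.9 and 44.1. HTRA3, a secreted serine protease, stood at 1.32, 1.005, 0.957 and 1.22 against 3.61, 6.08, 5.25 and 9.26. IDH2, the mitochondrial isocitrate dehydrogenase, stood at 46.5, 43.5, 42.5 and 45.8 against 74.1, 149, 118 and 175. IRS4, IGFBP5 and IDH2 were named after their values were seen. Of 37 HOX genes 16 lay higher in sets 2 and 3 (all genes, 19.0%) and 3 higher in set 1 (all genes, 38.6%). HOXA13, at the end of the HOXA cluster that is active in distal structures, stood at 8.79, 8.997, 11.1 and 9.41 against 21.98, 23.7, 22.8 and 23.00, and its neighbours HOXA11 and HOXA10 had differences of 0.86 and 0.73. In the HUWE1 siRNA libraries the median of the HOX genes was -0.03, against 0.15 in the controls, while HOXA13 stood at 9.76, 19.4 and 19.5 in sets 1, 2 and 3.

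The gamma protocadherins are adhesion proteins whose variable first exons are chosen by separate promoters and joined to shared last exons. PCDHGC3 (chr5:141475947-141512979, plus strand) stood at 0.809, 0.949, 0.683 and 1.04 in set 1 and 14.4, 11.9, 11.1 and 14.5 in sets 2 and 3. PCDHGA11, which ends at the same base, stood at 0.213, 0.443, 0.0911 and 0.203 against 7.76, 8.54, 7.52 and 9.02. Over the 22 genes of the cluster the sum was 6.65, 7.72, 6.94 and 7.10 against 29.5, 25.01, 24.9 and 29.7. Reads in the shared exons cannot be assigned to 1 member, so the sum is the firmer value.

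Several stress and signalling lists had medians near 0, against -0.13 for all genes, with members on both sides. The medians of the p53, NRF2, immediate early and proteasome lists were 0.05, 0.05, 0.03 and 0.06. Of 26 p53 targets, 5 lay higher in sets 2 and 3 (all genes, 19.0%), 4 higher in set 1 (all genes, 38.6%) and 17 overlapped. The p53 effector CDKN1A was among the latter, at 0.12. Of 18 NRF2 targets the counts were 6, 5 and 7, and heme oxygenase (HMOX1) stood at 199 ± 7.79 and 109 ± 44.1. Of 32 immediate early genes they were 6, 6 and 20, and of 34 proteasome genes 11, 9 and 14. Of 40 ATF4 targets 7 lay higher in sets 2 and 3 and 16 higher in set 1, close to the shares of all genes (19.0% and 38.6%). Among the 16 was the glutathione-degrading enzyme CHAC1 (189, 198, 185 and 182 against 135, 92.5, 107 and 59.97). The list's median of -0.11 turned positive with the mitochondrial transcripts kept, with median-of-ratios scaling and after removal of the GC and length trend.

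Most genes often used as references for expression did not overlap between the 2 groups, nor did 57.5% of all genes. Of 20, 9 lay higher in sets 2 and 3 (all genes, 19.0%), 8 higher in set 1 (all genes, 38.6%) and 3 overlapped. Of the 20, 1 (PGK1) was 2-fold apart as well (all genes, 6.46%). The overlapping ones were GAPDH, TBP and ATP5F1B, with differences of 0.32, -0.05 and 0.14. PGK1 and GUSB, a lysosomal glucuronidase, lay farthest apart, at 1.07 and -0.79. GUSB stood at 151, 149, 147 and 149 in set 1 and 89.3, 85.8, 84.7 and 82.8 in sets 2 and 3. Beta actin (ACTB) was 1.31 times higher in set 1.

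The HUWE1 siRNA libraries offer the same contrast in libraries that are not among the controls, although in the same tables. Of the 934 genes called higher in set 1 in the controls, 888 (95.1%) lay higher in set 1 without overlap in the HUWE1 siRNA libraries too, where 40.1% of all genes did, and 748 were again 2-fold apart (all genes, 6.41%). Of the 138 called higher in sets 2 and 3, 117 (84.8%) lay the same way, where 19.7% of all genes did, and 101 were 2-fold apart (all genes, 1.13%). No called gene lay the opposite way without overlap. Across 16368 genes the differences correlated at 0.93, a description in which genes are not independent and each table shares its processing. HMGCS1 had means of 214 in set 1, 665 in set 2 and 600.1 in set 3 of these libraries. HIST1H1C had 424, 28.9 and 22.3, and MIR503HG 222, 46.5 and 40.6.

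Within sets 2 and 3, control replicate 1 lay nearest to set 1. To describe this with genes called in other libraries than the controls, genes called between set 1 and sets 2 and 3 in the HUWE1 siRNA libraries were taken. Those libraries gave 1079 genes higher in set 1 and 191 higher in sets 2 and 3, not all of which were used here. Of the 1050 used that were higher in set 1, replicate 1 was the nearest of the 4 controls for 774 (73.7%). Of the 181 used that were higher in sets 2 and 3 it was nearest for 131 (72.4%). Over all genes tested, divided by the sign of their difference, these shares were 51.9 and 42.7%. The median distance from the set 1 mean for the first group was 0.95 in replicate 1, 1.25 in replicate 2, 1.14 in replicate 3 and 1.34 in replicate 4. The mean correlation with the set 1 controls was 0.973, 0.962, 0.966 and 0.953 in the same order. Without replicate 1 of sets 2 and 3 the controls gave 1143 genes higher in set 1 and 162 higher in sets 2 and 3. The labels set no replicate apart.

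**Figure D5:**
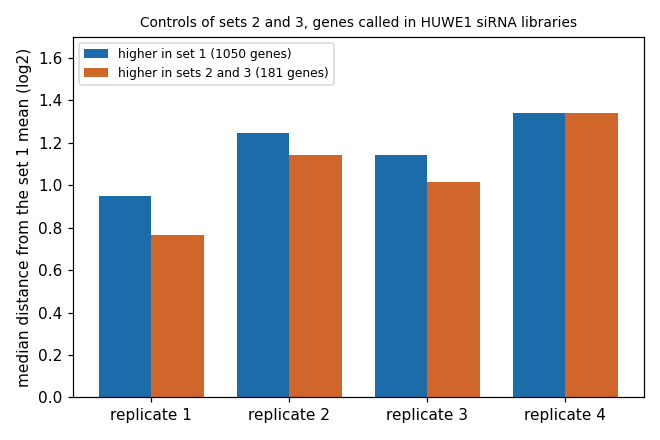
Median distance (absolute log2 difference) of each control library of sets 2 and 3 from the mean of the set 1 controls, for genes called between the sets in the HUWE1 siRNA libraries. Bars are medians over genes, for 1050 genes higher in set 1 and 181 higher in sets 2 and 3. Replicate 1 lies nearest at 0.95 and replicate 4 farthest at 1.34 for the first group.

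The differences varied with GC content, transcript length and gene type. Genes were put into 5 groups of like size by the GC content of their transcript. From the lowest to the highest GC content the median difference was 0.06, -0.05, -0.16, -0.24 and -0.30. Across 16222 genes with an annotated transcript the correlation with GC content was -0.19 and with log2 length 0.04. Of 5 groups by length, 9.61% of genes were 2-fold higher in set 1 in the shortest, up to 1705 bases, and 2.68% in the longest. The shares 2-fold higher in sets 2 and 3 were 2.06% and 0.277%. The share higher in set 1 without overlap was lowest in the shortest group, 30.6%, against 37.4% in the longest. Long intergenic noncoding RNAs were 2-fold higher in set 1 in 13.6% and sense-intronic RNAs in 14.9% of cases, protein-coding genes in 4.46%. Without the 2-fold limit, these types lay higher in set 1 without overlap in 40.0, 39.9 and 39.0% of cases. Among protein-coding genes those with 1 exon were 2-fold higher in set 1 in 10.7% and the others in 4.22% of cases. Higher in set 1 without overlap, with no 2-fold limit, were 41.6% and 38.9%. The part of GC content, transcript length and the share of mitochondrial transcripts in the single differences was not tested.

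A few genes varied widely among libraries of 1 set. FAM220A, an annotated protein-coding gene, stood at 1.95, 27.4, 19.1 and 26.4 in set 1 and 1.71, 41.3, 16.3 and 14.97 in sets 2 and 3, low in replicate 1 of both. Genes with near-identical copies, most of them for noncoding RNA, filled most of the other places. In set 1 these were RN7SK, RNU5F-1, SNORA71B and the histone genes HIST2H2AA3 and HIST2H2AA4. In sets 2 and 3 they were U1 copies and their relatives such as RNVU1-18.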

How the data were processed

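Polyadenylated RNA was sequenced as stranded libraries on a NovaSeq 6000 after Trizol extraction, per the labels' protocols. TPM values were deposited by the authors, with set 1 in 1 table and the other sets in another. Reads were placed on hg38, per the submitters' processing notes, while aligner and gene models were not given in the sources used here. Each library sums to the same total, so its depth is unknown.

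Symbols starting MT- were left out and each library rescaled, with Python 3.11.15, numpy 2.4.6, pandas 2.3.3 and matplotlib 3.10.9. Differences are means of log2(rescaled TPM + 1), sets 2 and 3 minus set 1. Since the set and the deposited table cannot be told apart, no test was run between them. A gene with 1 or more in at least 4 of the 8 libraries was called where the 4 values of each set did not overlap and the means differed 2-fold. Calling was checked on simulated data. The simulation left out genes of low level in set 1, so calls among low genes were not checked. Coordinates, GC content and length came from GENCODE release 29, also hg38, with 97.7% of compared genes matched.

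The members and the 40 gene lists (1172 of 1174 entries found, 7 of them by an older symbol) were chosen with earlier results of these data known, and 6 lists were added after seeing the data. Named were the 15 genes of highest level, the 15 largest differences each way with a set mean of 5 or more, up to 4 non-overlapping members of each list, the 6 genes of widest spread in each set with a mean of 10 or more, HUWE1 and the lineage markers. Genes outside this rule, among them H1F0, MIR503HG, MAPK15, SREBF2, IRS4, IGFBP5, IDH2 and list members given to show the opposite direction or overlap, were named after their values were seen. XIST, clone names and readthrough genes were counted but not named. The alternatives tried were other scalings, pseudocounts, filters and fold limits, each replicate left out, and removal of GC and length trends.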

Additional observations from a re-analysis of the deposited data

Results flagged for a closer look

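In each control group of 4, the highest or lowest value was set against the other 3 for 252 groups of values of named genes and gene sums, and 13 had 1 library far from the rest. Chance alone flags about 1 in 20 such groups. In the controls of sets 2 and 3, replicate 1 stood high, toward set 1, for HIST1H4H at 3.69 (the others 1.54 to 1.58), HIST2H2AA4 and its sum with HIST2H2AA3 at 63.9 (29.9 to 33.5), the sum of HIST2H4A and HIST2H4B at 33.6 (13.2 to 13.9), KRTAP19-3 at 1.21 and SSX4B at 0.426, the last 2 with the others listed at 0. In the same library RNA5-8SN3 was low at 47.4 (74.1 to 80.6), again toward set 1. In replicate 4 of sets 2 and 3 the U1 copies RNU1-1 and RNU1-3 were low, both at 1.30, against 22.4 to 33.0 and 19.2 to 28.7. In set 1, replicate 4 was low for HIST2H2AA3 at 3.58 (72.6 to 107) and for SSX1 at 7.88 (8.56 to 8.64), and replicate 3 was low for RNU1-2 at 1.61 (3.70 to 4.18) and high for RNU4-2 at 2.82, with the others listed at 0.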

How the results depend on the processing

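No paired analysis was possible because the labels tie no replicate of set 1 to one of sets 2 and 3 and their comparison comes from no test. The main counts were 1072 genes, 934 higher in set 1 and 138 higher in sets 2 and 3. The count higher in set 1 was 580 with mitochondrial transcripts kept. Median-of-ratios scaling gave 617 and 249, quantile normalization 540 and 270, and removal of the GC and length trend, added after seeing the data, 541 and 241. A pseudocount of 0.1 gave 1703 genes (1477 and 226) and a mean of 5 or more 627 (542 and 85). A limit of 1.5-fold gave 3500 (2829 and 671) and one of 4-fold 95 (74 and 21). HUWE1 siRNA set 1 against set 3 alone, also added after seeing the data, gave 224 higher in set 3. Leaving out 1 control library gave 887 to 1305 genes in all, 756 to 1143 higher in set 1 and 98 to 162 higher in sets 2 and 3. It gave 15895 to 16054 genes at 1 or more in set 1 and 15016 to 15210 in sets 2 and 3. No called gene had the opposite sign when control libraries were compared under any of these settings. Over all alternatives 209 values of gene list medians moved by more than their spread and 618 did not, and for named genes 1374 moved and 4920 did not. The medians of the ATF4, E2F, nephron regulator, neuronal, Wnt, YAP, lysosome, metallothionein, mitochondrial ribosomal, TGF-beta, ER folding, actin and pluripotency lists changed sign under at least 1 scaling or after removal of the trend, as did 52 of 355 genes that the naming rule took, among them ACTG1, CDH2, DNMT3B, EEF2, FAM220A, GATA2, HUWE1, KRT8, LHX1, NEFL, NEFM, PODXL, RPL41, SREBF2, TBP, UCHL1 and VIM. With TPM alone, counting error of low genes cannot be separated from the spread between libraries.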
